A study of Mus musculus with 2 samples.

Results

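The 10 core genes of planar cell polarity measured here were Celsr1, Celsr2, Celsr3, Vangl1, Vangl2, Prickle1, Prickle2, Dvl2, Ptk7 and Scrib. They were chosen by name, with earlier results of these data known, out of 43346 genes in the files. Planar cell polarity is the alignment of cells within the plane of a tissue sheet. In the core machinery, Celsr atypical cadherins join neighbouring cells, Vangl proteins with their cytoplasmic partner Prickle gather on 1 side of each cell, and Frizzled receptors with Dishevelled gather on the other. In the mouse embryo the system narrows and lengthens the neural plate, and loss of Vangl2, Scrib or Ptk7 is known to leave the neural tube open. After closure the same genes are known for roles in neuron migration and axon guidance.

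Total RNA was sequenced from neural tube of B6NCrl mouse embryos, male and female mixed, at embryonic day 11.5, a stage after closure of the tube. There was 1 group with 2 biological replicates, and no mutant, treatment or second stage. Replicate 1 was a pool of 109 embryos and replicate 2 a pool of 88, so embryo-to-embryo variation within a pool was not measured. The whole tissue was used, so fewer cells of a type and less RNA per cell cannot be told apart.

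Levels are given in TPM, a scale with a fixed total per library that divides counts by transcript length and so allows levels of different genes to be compared. Total expected counts, the estimated reads, were 27638068 in replicate 1 and 29166901 in replicate 2. All 14 neural progenitor markers, all 16 neuron markers and all 6 floor plate markers were detected at 1 TPM or more in both libraries. The tissue was not neural only. Paraxial mesoderm and connective tissue was represented by all 15 of its markers, with a summed level of 917 TPM in replicate 1 and 828 TPM in replicate 2, and so were all 10 markers each of skeletal muscle, endothelium and erythroid cells and 8 of 9 markers of surface ectoderm. No marker of any list was at 0. Which of these cells carried the core polarity genes was not measured.

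All 10 core genes were detected in both libraries. Celsr2 and Vangl2 led at about 50 TPM and Celsr1 was lowest at about 4 TPM. The median over the 10 genes was 18.7 TPM, beside 19.9 TPM over the 12855 of 21461 protein-coding genes (59.9%) that were detected. Their summed level was 220.66 TPM in replicate 1 and 224.23 TPM in replicate 2. By mean TPM the order was Celsr2, Vangl2, Dvl2, Ptk7, Scrib, Prickle1, Vangl1, Celsr3, Prickle2 and Celsr1. Among the 9 pairs of neighbours in this order, only Celsr2 and Vangl2 had ranges that overlapped, and the other 8 pairs did not overlap over the 2 libraries. Celsr2 stood at percentile 85.6 of all protein-coding genes and Celsr1 at percentile 48.2.

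**Figure D1:**
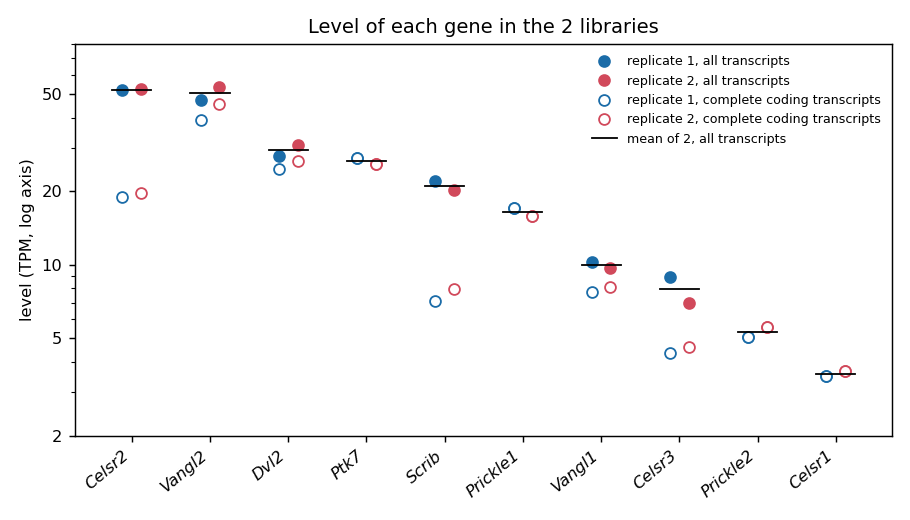
Level of each core gene in TPM on a log axis, with filled points for all transcripts of the gene, open points for transcripts with a complete coding sequence, and a bar at the mean of the 2 libraries for all transcripts. Celsr2 and Vangl2 lie highest with all transcripts counted, and Celsr2 and Scrib have the widest gap between filled and open points.

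Celsr2 (ENSMUSG00000068740.9, GRCm38 chromosome 3, 108390851 to 108415552, minus strand) encodes a large multipass cadherin of the Flamingo family. Its level was 51.65 TPM in replicate 1 and 52.41 TPM in replicate 2, a mean of 52.0 ± 0.537 TPM (SD, n = 2), and its 4496 and 4872 counts were also the most among the 10 genes. Its relative Celsr3 (ENSMUSG00000023473.7, chromosome 9, 108826320 to 108852969, plus strand), known for axon tract formation, was at 8.90 and 6.98 TPM, a mean of 7.94 ± 1.36 TPM. Celsr1 (ENSMUSG00000016028.9, chromosome 15, 85898929 to 86033777, minus strand), the family member tied to neural tube closure and skin polarity, was at 3.49 and 3.68 TPM, a mean of 3.58 ± 0.134 TPM. The 3 cadherins thus lay in the order Celsr2, Celsr3, Celsr1 in both libraries. Celsr2 was 14.5-fold above Celsr1, with a log2 ratio of Celsr1 to Celsr2 of -3.86 ± 0.04 (SD, n = 2), and 6.60-fold above Celsr3, with a log2 ratio of 2.72 ± 0.26.

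That order held when only transcripts with a complete coding sequence were counted, but the gaps narrowed. On that basis Celsr2 was at 18.92 and 19.68 TPM, Celsr3 at 4.36 and 4.62 TPM, and Celsr1 was unchanged. Celsr1 had 1 listed transcript, a complete one, so its level could not change. The excess of Celsr2 over Celsr1 became 5.38-fold, and that of Celsr3 over Celsr1 fell from 2.20-fold to 1.25-fold. The rest of the Celsr2 level came from transcripts whose annotated coding sequence is incomplete or absent. Celsr2-206, a 3486-base model with an incomplete coding sequence, held 29.1% and 32.7% of the gene's TPM. Celsr2-205, a 467-base model with no coding sequence, held 17.2% and 22.1% on only 57 and 76 counts. The full-length Celsr2-201 of 10598 bases held 36.6% and 37.6% of the TPM but 76.8% and 76.1% of the counts, because TPM weighs a read on a short transcript more than a read on a long transcript. Most of the sequence of these short models also lies in Celsr2-201: of their stretches of 100 bases, 86.7% for Celsr2-206 and 73.1% for Celsr2-205.

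Celsr3 was the member whose effective length differed most between the libraries. Its counts were 7.40% higher in replicate 2 before any scaling (919 and 987), while its TPM differed by -21.6%. The effective length that the quantification assigned to the gene was 5932 bases in replicate 1 and 7876 bases in replicate 2, a rise of 32.8%. Behind it stood a 722-base partial model, Celsr3-202, at 32.4% of the gene's TPM in replicate 1 (31 counts) and 10.0% in replicate 2 (8 counts). The authors' deposited intervals for Celsr3-202, 1.72 to 4.14 TPM and 0.213 to 1.49 TPM, did not overlap. The full-length Celsr3-201 of 11547 bases differed little in level, at 4.36 and 4.62 TPM, but its share was 49.0% and 66.1%. A further partial model, Celsr3-204, was at 4.25% and 16.3%.

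Vangl2 (ENSMUSG00000026556.11, chromosome 1, 172000960 to 172028444, minus strand) encodes the membrane protein altered in the loop-tail mouse, in which the neural tube does not close. It was at 47.08 TPM in replicate 1 and 53.33 TPM in replicate 2, a mean of 50.2 ± 4.42 TPM (SD, n = 2), on 3304 and 3872 counts. Its paralog Vangl1 (ENSMUSG00000027860.11, chromosome 3, 102153583 to 102204693, minus strand) was at 10.26 and 9.73 TPM, a mean of 9.99 ± 0.375 TPM, on 469 and 500 counts. Vangl2 was therefore 5.02-fold above Vangl1, with log2 ratios of 2.20 and 2.45 in the 2 libraries, and 5.33-fold above it over complete coding transcripts. No level of Vangl1 came near a level of Vangl2.

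The main Vangl2 transcript, Vangl2-201 of 5698 bases, held 60.8% and 59.6% of the gene's TPM. Vangl2-203, with a coding sequence of 1683 bases in place of 1563, held 22.2% and 24.9%. The partial model Vangl2-204 held 11.8% and 7.60% in the same libraries, under 10% on average. For Vangl1, Vangl1-202 held 75.3% and 83.5%, and the transcript with the longest coding sequence, Vangl1-201, was listed at 0 in both libraries. In the annotation used here Vangl1-201 is 6531 bases long and in the deposited files it is 1744 bases long, so reads from the rest of that model had no place in it. The coding sequence annotated for Vangl1-202 is 1179 bases, beside 1578 bases for Vangl1-201. Both are from the annotation used here, in which Vangl1-202 is 3207 bases long, beside 3413 bases as deposited. By the deposited posterior mean estimate Vangl1-202 held 64.3% and 72.9%.

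Prickle1 (ENSMUSG00000036158.8, chromosome 15, 93499114 to 93595891, minus strand) and Prickle2 (ENSMUSG00000030020.9, chromosome 6, 92370908 to 92706155, minus strand) encode LIM-domain proteins that bind Vangl at the membrane. Each has a major and minor transcripts that start at different sites, and the stretches around those sites are shown for that reason. Prickle2-202 also ends elsewhere, at 92375384 in place of 92370908, and is 3708 bases long beside 7760 for Prickle2-201. They run from 250 bases before to 50 bases after the start in RefSeq on GRCm38.p6, on the minus strand, with each CG dinucleotide, the pair that can be methylated, in capitals. They lie at chr15:93595853-93596152, chr15:93519471-93519770, chr6:92706135-92706434 and chr6:92481343-92481642, in the order printed.
Prickle1-201: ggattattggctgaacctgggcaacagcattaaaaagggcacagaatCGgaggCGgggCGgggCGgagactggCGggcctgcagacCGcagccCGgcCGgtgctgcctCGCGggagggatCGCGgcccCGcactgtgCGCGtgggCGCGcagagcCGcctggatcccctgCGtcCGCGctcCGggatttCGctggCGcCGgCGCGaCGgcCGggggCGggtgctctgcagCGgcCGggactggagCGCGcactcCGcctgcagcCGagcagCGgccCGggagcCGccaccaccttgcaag
Prickle1-202: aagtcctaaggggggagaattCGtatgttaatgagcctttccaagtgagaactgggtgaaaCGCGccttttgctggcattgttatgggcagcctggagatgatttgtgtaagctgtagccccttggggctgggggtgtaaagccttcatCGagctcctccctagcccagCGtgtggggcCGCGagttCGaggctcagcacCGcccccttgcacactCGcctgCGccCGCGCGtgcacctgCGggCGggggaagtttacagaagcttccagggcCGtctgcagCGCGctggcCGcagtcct
Prickle2-201: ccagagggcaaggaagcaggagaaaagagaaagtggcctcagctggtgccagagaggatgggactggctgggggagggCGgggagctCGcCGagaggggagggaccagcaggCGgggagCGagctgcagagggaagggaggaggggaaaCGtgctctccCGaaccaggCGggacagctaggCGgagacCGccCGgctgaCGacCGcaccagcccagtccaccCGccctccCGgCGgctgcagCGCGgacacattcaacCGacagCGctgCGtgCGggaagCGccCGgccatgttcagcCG
Prickle2-202: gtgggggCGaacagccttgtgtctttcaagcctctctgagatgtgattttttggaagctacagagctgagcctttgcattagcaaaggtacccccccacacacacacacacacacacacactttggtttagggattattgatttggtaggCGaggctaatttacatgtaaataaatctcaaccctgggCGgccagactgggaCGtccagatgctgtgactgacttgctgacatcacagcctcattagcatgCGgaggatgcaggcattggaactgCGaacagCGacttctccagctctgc

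Prickle1 was at 17.00 TPM in replicate 1 and 15.79 TPM in replicate 2, a mean of 16.4 ± 0.856 TPM (SD, n = 2). Prickle2 was at 5.08 and 5.56 TPM, a mean of 5.32 ± 0.339 TPM. Prickle1 was 3.08-fold above Prickle2, with log2 ratios of 1.74 and 1.51, and the ranges did not overlap. By estimated share, the transcript with the most upstream start led in both genes, and the use of start sites was not measured. Prickle1-201 held 91.9% and 87.1% of the Prickle1 level, and Prickle1-202, with the same coding length of 2496 bases, held 8.08% and 12.9%. Prickle2-201, with a coding sequence of 2703 bases, held 65.3% and 68.8%, or 53.28% and 57.95% by the deposited posterior mean estimate. Prickle2-202, which starts downstream and has a coding sequence of 2535 bases, held 24.3% and 26.4%. Prickle2-203 held 10.5% and 4.78%, and Prickle2-204 was listed at 0 although the posterior mean estimate in the same files gave it 10.9% and 9.36%. These models share from 84.3% to 99.2% of their 100-base stretches with Prickle2-201, and the stretches that set them apart from it number 565 for Prickle2-202, 245 for Prickle2-203 and 62 for Prickle2-204.

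The start regions of the leading Prickle transcripts were rich in CG. The stretch at Prickle1-201 held 39 CG dinucleotides and that at Prickle1-202 held 20, beside a median of 7 over 32851 stretches of the same length. At Prickle2 the count was 25 at the leading start, and 7, 5 and 4 at the starts of Prickle2-202, Prickle2-203 and Prickle2-204. RefSeq stretches matched 7 of the 10 core genes, 11 stretches in all. The stretches of Celsr2 with 40, Celsr3 with 25, Ptk7 with 22, Vangl2 with 21 and Dvl2 with 20 CG dinucleotides were all above that median. In the same order they lay at percentiles 96.1, 81.6, 76.9, 75.2 and 73.5 of all stretches. A count of 10 or more was common, in 43.5% of all stretches. The stretch of Celsr3 surrounds a RefSeq start, and Celsr3-201 in GENCODE starts 275 bases downstream of it, outside the stretch. The letters TATAAA, searched on both strands, were in 0 of the 11 stretches and in 13.6% of all. CTTTGA and CTTTGT, the core letters that TCF and LEF factors prefer, also searched on both strands, were each in 1 stretch, that of Prickle2-204, and in 16.0% and 18.7% of all. These are matches of letters only, and neither methylation nor binding was measured.

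Dvl2 (ENSMUSG00000020888.12, chromosome 11, 70000595 to 70012301, plus strand) encodes a Dishevelled protein, which passes the signal from Frizzled to both the polarity and the beta-catenin branch of Wnt signalling. It was at 27.82 TPM in replicate 1 and 30.83 TPM in replicate 2, a mean of 29.3 ± 2.13 TPM (SD, n = 2). Of its paralogs, Dvl3 was higher at 41.56 and 39.79 TPM and Dvl1 was lower at 11.09 and 12 TPM, and none of the 3 ranges overlapped. Dvl3 was 1.39-fold above Dvl2, and Dvl2 was 2.54-fold above Dvl1. Over complete coding transcripts these became 1.55-fold and 4.83-fold. Dvl2-201 held 86.2% and 86.1% of the Dvl2 level. The longer Dvl2-202 and Dvl2-207 are identical in sequence, yet the files gave them 65 counts each in replicate 1 and 151 and 0 counts in replicate 2, a split with no information in it. These long models overlap the exons of Acadvl, a gene of fatty acid oxidation on the opposite strand, over 1151 bases. No source used here says whether the libraries keep strand, and reads there could belong to either gene. The other 9 core genes shared no 100-base stretch of their transcripts with any other gene, and Dvl2 shared 6.95% of its stretches, all of them with Acadvl. With stretches of 50 bases Dvl2 shared 13.0%, and Vangl1, Vangl2, Celsr3 and Ptk7 shared from 0.0372% to 0.481%. The matches numbered 6 for Dvl2 and 288 for Vangl1, a gene being counted once for each strand that matched. A member's own opposite strand was not excluded.

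Ptk7 (ENSMUSG00000023972.9, chromosome 17, 46564471 to 46629504, minus strand) encodes a receptor with an inactive tyrosine kinase domain. It was at 27.45 TPM in replicate 1 and 25.74 TPM in replicate 2, a mean of 26.6 ± 1.21 TPM (SD, n = 2), and the files list 1 transcript for it, of 4255 bases. Scrib (ENSMUSG00000022568.12, chromosome 15, 76047158 to 76069784, minus strand), a scaffold of leucine-rich repeats and PDZ domains that binds Vangl2, was at 21.93 and 20.18 TPM, a mean of 21.1 ± 1.24 TPM. For Scrib the leading transcript by TPM in both libraries was not a coding model. Scrib-204, a processed transcript of 3071 bases, held 46.8% and 48.0% of the TPM. The coding Scrib-203 of 5545 bases held 25.8% and 32.4%. By counts Scrib-203 was ahead, with 537 and 639 counts beside 531 and 517 for Scrib-204, and complete coding transcripts held 54.6% and 59.4% of the gene's counts. The authors' deposited intervals put Scrib-204 at 8.75 to 11.1 TPM and Scrib-203 at 3.33 to 6.76 TPM in replicate 1, and at 8.19 to 10.5 and 3.80 to 7.44 TPM in replicate 2, with no overlap in either library.

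Counted over complete coding transcripts, Scrib was at 7.08 and 7.97 TPM, which moved it from above Prickle1 to level with Vangl1. Scrib-204 shares 88.9% of its 100-base stretches with Scrib-203, so 329 stretches set it apart. A short model, Scrib-205 of 423 bases, held 20.9% and 10.2% on 26 and 12 counts.

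**Figure D2:**
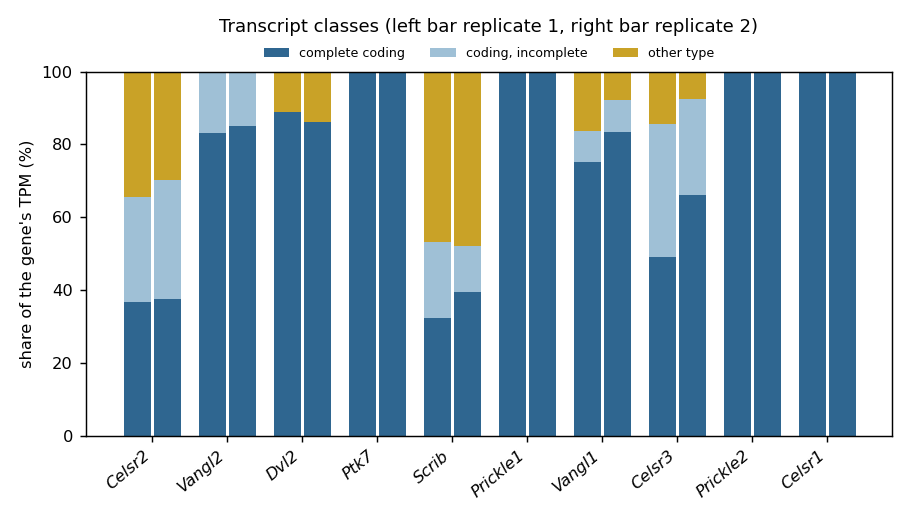
Share of each gene's TPM (%) on transcripts with a complete coding sequence, an incomplete coding sequence, or of another type (no coding sequence, or marked for nonsense-mediated decay), with replicate 1 on the left and replicate 2 on the right of each pair of bars. The complete share is lowest for Scrib (32.3% and 39.5%) and Celsr2 (36.6% and 37.6%). It is 100% for Celsr1, Prickle1, Prickle2 and Ptk7, whose listed transcripts are all complete, so no other share was possible.

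With complete coding transcripts only, an alternative chosen after seeing the data, the order of the 10 genes was Vangl2, Ptk7, Dvl2, Celsr2, Prickle1, Vangl1, Scrib, Prickle2, Celsr3 and Celsr1. Vangl2 then led alone at 39.14 and 45.42 TPM. In this order Ptk7 and Dvl2 overlapped, as did Vangl1 and Scrib, and the other 7 pairs of neighbours did not. The median of the 10 genes was 12.2 TPM in place of 18.7 TPM. Celsr2 and Scrib were the 2 members whose mean complete share was under 50% of their TPM, which was so for 13.7% of 7821 protein-coding genes with several transcripts and at least 5 TPM.

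The leading transcript of each core gene was compared between the 2 pools. Of the 8 core genes with several transcripts in the files, the leading transcript was the same in both libraries for 8. Among 8016 genes with several transcripts and a mean level of at least 5 TPM, the leading transcript differed in 7.32%. Celsr3 was the 1 core gene whose leading share moved by 10 points or more, beside 14.7% of those genes. For a set of 8 genes, both counts are near the shares over all such genes. The median move was 2.38 points in the core genes and 3.03 points in all such genes. Effective length differed by 10% or more for Celsr3 and Scrib, beside 8.44% of genes, and for both the TPM and the counts moved in opposite directions. Scrib counts were 6.78% higher in replicate 2 while its TPM differed by -7.98%. Vangl1 behaved in the same way with an effective length 9.01% longer, counts 6.61% higher and a TPM difference of -5.17%.

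**Figure D3:**
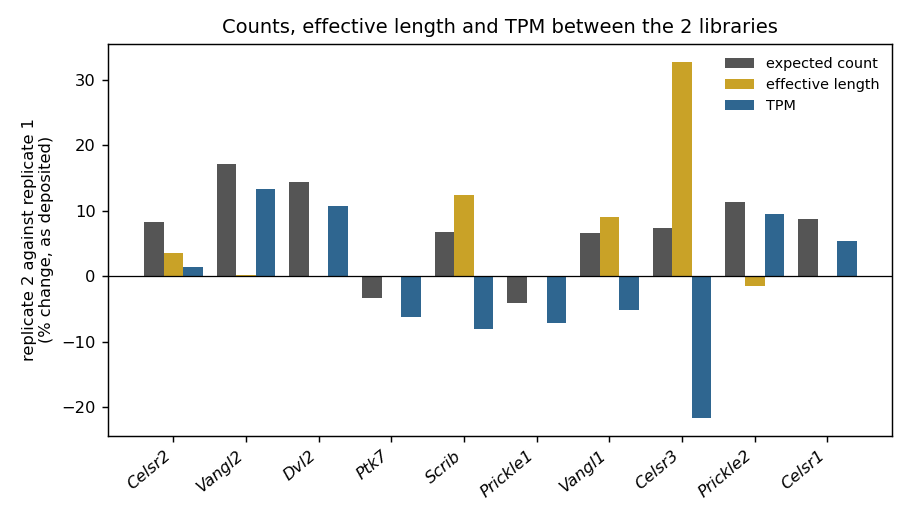
Change from replicate 1 to replicate 2 (%) in the deposited expected count, effective length and TPM of each core gene, before any scaling. Celsr3 combines a count 7.40% higher with a TPM change of -21.6%, and Celsr1, Ptk7, Dvl2 and Prickle1 show almost no change in effective length. Celsr1 and Ptk7 have 1 listed transcript each, so a shift between transcripts could not alter theirs.

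The 2 pools were then compared gene by gene on counts, which do not depend on effective length. An exact binomial test of each gene's counts, with Benjamini-Hochberg adjustment over 17219 genes, asks whether these 2 libraries differ beyond counting error, and it says nothing of a condition. Vangl2 was called higher in replicate 2, with 3304 and 3872 counts, a log2 ratio of 0.14 after TMM scaling (10.2%) and an adjusted p of 0.000634 in the exact binomial test. Ptk7 was called lower, with 1985 and 1920 counts, a log2 ratio of -0.14 and an adjusted p of 0.0215 in the same exact test; scaled on spike-ins in place of genes its log2 ratio was 0.064 and it was not called. That scaling moved all genes by 0.20 on the log2 scale, which exceeds the size of either difference.

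So 1 of 10 core genes was called higher and 1 lower, beside 10.4% called higher and 9.69% called lower among all genes tested, and 12.4% and 10.4% among the 7589 genes with counts in the range of the members. A count of 1 of 10 in each direction is near that background. No core gene differed by 1.5-fold or more, beside 10.8% of all genes. That share takes in genes with far fewer counts than the members, which had 469 to 4872. It was not computed for the genes of like counts. The median absolute log2 ratio was 0.05 over the 10 core genes and 0.08 over the genes of like counts. Prickle1 had a log2 ratio of -0.15 with an adjusted p of 0.0638, and Dvl2 a log2 ratio of 0.11 with an adjusted p of 0.155, both by the exact binomial test. The intervals of Celsr1, Celsr2, Celsr3, Prickle2, Scrib and Vangl1 all included 0 under TMM scaling. That of Celsr2, the narrowest, ran from -0.03 to 0.09.

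Markers of cell types moved between the same libraries. In replicate 2, 12 of 16 neuron markers were called higher and 0 lower, beside the 10.4% and 9.69% of all genes, with summed levels of 2973 and 3424 TPM. Among neural progenitor markers 5 of 14 were called higher and 1 lower. In the other direction, 11 of 15 markers of paraxial mesoderm and connective tissue and 8 of 10 muscle markers were called lower, and the muscle markers summed to 582 and 482 TPM. Fewer calls fell in the other lists: 0 of 9 surface ectoderm markers in either direction, 1 of 10 endothelium markers lower, 1 of 6 floor plate markers higher, and 1 higher and 2 lower of 10 erythroid markers. All these marker calls were made under TMM scaling, and scaling on spike-ins moves every log2 ratio up by 0.20. Of the mesoderm and muscle markers called lower, Col3a1, Col1a2, Col2a1 and Pdgfra lay within 0.20 below 0 and so change sign. The other markers called lower in those lists lay further below 0. The part of these marker shifts in the differences of Vangl2 and Ptk7 was not tested. The marker lists, too, were chosen with earlier results of these data known.

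**Figure D4:**
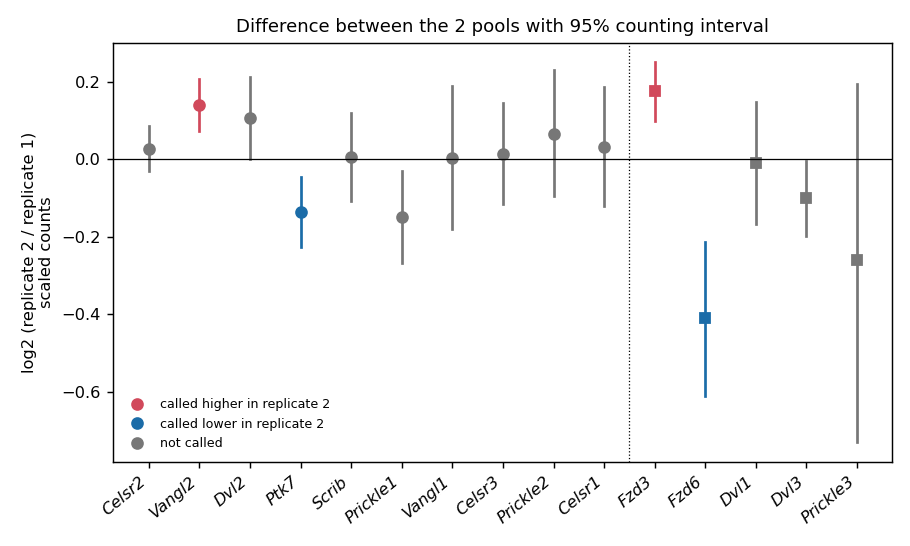
Log2 ratio of replicate 2 to replicate 1 on TMM-scaled counts, with 95% counting intervals, for the 10 core genes (circles) and 5 of their 6 paralogs and receptors (squares). Vangl2 and Fzd3 lie above 0 and Ptk7 and Fzd6 below it among the called genes drawn. Prickle4, not drawn, was called higher with a log2 ratio of 1.99 on 4 and 23 counts.

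The rest of the core machinery was led by Dvl3, already given, and Fzd3. Fzd3, the Frizzled receptor known for axon tracts, was at 36.46 and 42.43 TPM, and Fzd6, which acts with it in neural tube closure, was at 6.82 and 5.28 TPM. Fzd3 was called higher in replicate 2 with a log2 ratio of 0.18, and Fzd6 lower with -0.41. Ankrd6, the relative of fly Diego, was at 21.85 and 24.75 TPM. The further Prickle paralogs were low, Prickle3 at 2.42 and 1.92 TPM and Prickle4 at 0.65 and 2.16 TPM on 4 and 23 counts. Of these 8 other core genes 7 were detected, the median being 8.80 TPM, and 2 were called higher (Fzd3 and Prickle4) and 2 lower (Fzd6 and Invs, which links polarity to cilia).

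The 9 ligands and co-receptors were all detected and had a median of 8.84 TPM. Cthrc1, a secreted cofactor of Wnt and Frizzled, led at 91.32 and 87.46 TPM, followed by the Wnt receptor Ryk at 32.45 and 33.39 TPM and the glypican Gpc4 at 13.83 and 13.42 TPM. Wnt5a, the ligand best known for this pathway, was at 10.75 and 9.97 TPM. Its counts were 988 and 750, a log2 ratio of -0.48 that was called lower in replicate 2. The counts thus differed more than the TPM, which over complete coding transcripts was 10.45 and 8.20. Ror1, a Wnt5a receptor, was the other of the 2 called lower, with a log2 ratio of -0.24, and 0 were called higher.

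Downstream effectors were led by the small GTPases Rac1, at 318.01 and 314.12 TPM, and Rhoa, at 212.51 and 186.56 TPM, which act in many pathways. The kinases Mapk8, at 19.50 and 19.87 TPM, and Rock1, at 17.59 and 17.51 TPM, followed. The 12 effectors were all detected and had a median of 14.4 TPM, and 1 was called higher and 2 lower. Those called were Daam1, a formin that binds Dishevelled, with a log2 ratio of 0.24, Rhoa with -0.24 and Rac1 with -0.06. Scribble's partners were detected in 10 of 10 cases and had a median of 13.2 TPM. Highest were Llgl1, a fellow basolateral polarity protein, at 76.65 and 87.65 TPM and Arhgef7, a Rac activator that binds Scrib, at 48.46 and 54.15 TPM. The scaffolds Dlg5, at 21.05 and 20.07 TPM, and Dlg1, at 17.15 and 19.43 TPM, came next. Llgl1 and Arhgef7 were called higher, with log2 ratios of 0.15 and 0.12, and Dlg5 and Lpp lower, with -0.14 and -0.13.

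The parallel Fat and Dachsous system, giant cadherins together with Fjx1, the relative of fly Four-jointed, was detected in 5 of 7 genes, the median being 10.6 TPM. Fat1 was at 23.66 and 23.50 TPM, Fjx1 at 17.48 and 17.69 TPM, Dchs1 at 16.53 and 17.80 TPM and Fat4 at 11.29 and 9.81 TPM, while Fat2 was at 0.01 and 0.04 TPM on 3 and 10 counts and Dchs2 was at 0.84 and 0.93 TPM. Fat4 was the 1 gene called, lower with a log2 ratio of -0.17. The 5 genes listed for Vangl trafficking had the highest median of the 6 lists, 74.6 TPM. Their top members were the cargo receptor Tmed2 at 373.70 and 372.98 TPM and the adaptor Gipc1 at 131.53 and 140.22 TPM, followed by Atp6ap2 at 74.50 and 74.71 TPM and Arfrp1 at 53.71 and 49.56 TPM, and 0 of the 5 were called in either direction. These trafficking genes serve many cargoes. Over all 6 lists, 48 of 51 genes were detected, the median was 13.9 TPM, and 5 were called higher and 9 lower, beside 10.4% higher and 9.69% lower among all genes tested. Among those called, Rac1, Fat4, Dlg5 and Lpp lay within 0.20 below 0 and so change sign under spike-in scaling. Invs, Ror1, Daam1 and Lpp were named after their values were seen.

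**Figure D5:**
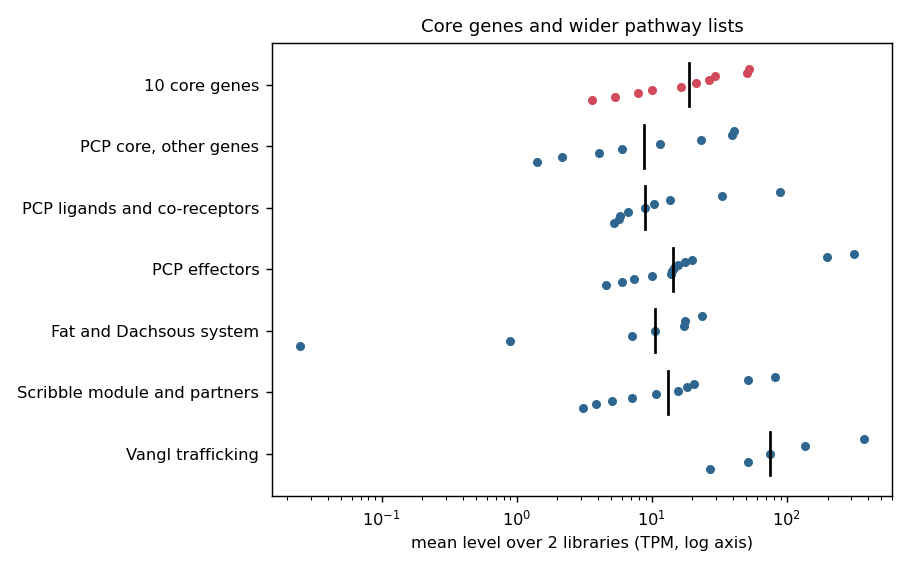
Mean level over the 2 libraries (TPM, log axis) of the 10 core genes and of each gene of the 6 wider lists, with a bar at the median of each row. The core genes have a median of 18.7 TPM, and only the trafficking list has a higher one, 74.6 TPM.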

How the data were processed

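RNA longer than 200 bases was sequenced from 10 ng per library with spike-ins, per the labels' protocols, which name both total RNA and SmartSeq. Expected counts, TPM values, the percent of a gene's TPM on each transcript and the bounds of a TPM interval (a signal of unstated level) were deposited by the authors on mm10 with GENCODE M4, per the deposited file descriptions. No source used here names the aligner or the quantifier. TPM includes the spike-ins, which took 13.2% and 11.8% of it. Effective lengths were 99 bases below lengths, which lifts the TPM of short transcripts.

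Symbols and coordinates came from GENCODE M21 (GRCm38), matched on identifier for 42462 of 43346 genes. Of the members' transcripts, 43 had the same length in both annotations and 5 did not. A complete coding sequence means a protein-coding model with both ends annotated. Expected counts were rounded, scaled by TMM in edgeR 4.0.16 without spike-ins (prior count 2) and tested per gene by a two-sided exact binomial test where at least 1 library had 10 counts, with a threshold of 0.05 on the Benjamini-Hochberg adjusted p. With 1 library on each side there are no residual degrees of freedom, so only counting error is covered, and without molecular identifiers reads can be copies of the same molecule. The binomial script was tested on simulated data. A gene was detected at 1 TPM in both libraries.

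The members and lists were chosen with earlier results of these data known. Named were the members, their transcripts with a mean share of 10% or more, paralogs, the 4 highest genes of each of the 6 wider lists and up to 2 below 1 TPM; Vangl1-201, Vangl2-204, Prickle2-203, Prickle2-204, Dvl2-202 and Dvl2-207 were added where they bear on a share. Alternatives changed the scaling (DESeq2 1.42.0 size factors, total counts, spike-ins), filter, prior count, fold, posterior mean estimates, TPM denominator, detection level, window length and transcript set. Python 3.11.15, pandas 2.3.3 and R 4.3.3 were used.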

Additional observations from a re-analysis of the deposited data

How the results depend on the processing

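No paired analysis was possible because there was 1 group. Scaling on spike-in counts shifted all genes by 0.20 (log2) and gave 7 core genes higher and 0 lower, with 8685 genes higher and 434 lower overall; Ptk7 turned from -0.14 to 0.064 (adjusted p 0.247, exact binomial test). DESeq2 size factors or total counts changed no call of the 10 genes. With a filter of 100 counts, 2 core genes were lower, Prickle1 being added at an adjusted p of 0.0499 in the exact binomial test. At 1.2-fold 4563 genes differed and at 2-fold 740. The median TPM of the core genes was 24.4, and of the 51 wider genes 18.1, with TPM rescaled over nuclear protein-coding genes, and 12.2 and 9.71 over complete coding transcripts. Over these transcripts the log2 ratios were -2.43 for Celsr1 to Celsr2, 2.10 for Celsr2 to Celsr3, -0.32 for Celsr1 to Celsr3, 2.27 for Dvl2 to Dvl1 and -0.63 for Dvl2 to Dvl3. Posterior mean TPM gave -3.90 for Celsr1 to Celsr2 and 1.28 for Dvl2 to Dvl1. No level ratio changed direction under any alternative run. At a background of 1 TPM, 89.8% of genes kept their leading transcript. With either replicate alone the core genes' median ran from 18.0 to 19.5 TPM and that of the wider genes from 13.1 to 14.8 TPM. The causes of the differences between the 2 pools were not tested.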
